A study of Homo sapiens and Mus musculus with 100 samples.

Results

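The mRNA of 45 genes of the integrated stress response and of amino acid supply was followed through a study of vitamin B2 (riboflavin) and the aryl hydrocarbon receptor (AhR), which is a transcription factor switched on by ligands. The genes were chosen by symbol, with earlier results of these data known. Their counts beside the shares of all genes are therefore descriptive. All 45 were listed among the 28035 genes of each of the 6 human tables and, under their mouse symbols, among the 24940 genes of both mouse tables. By role they comprised 9 regulators and feedback genes, 6 stress effectors, 3 secreted factors, 10 enzymes of amino acid and one-carbon metabolism, 6 amino acid transporters, and 11 genes of tRNA charging and export.

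Messenger RNA was measured in HepG2 cells, a human liver tumour line, cultured without vitamin B2 (deprived) or as controls and taken at days 3, 6, 9 and 12. Caco-2 cells, a human colorectal adenocarcinoma line, were taken at day 9, deprived and control. At day 12, deprived and control HepG2 cells were also compared with an AhR inhibitor and without it, with an IDO/TDO inhibitor and without it, and with an AhR guide RNA and with a control guide RNA. IDO and TDO are the enzymes that begin the breakdown of tryptophan to kynurenine. A further set of HepG2 cells received Kyn or DMSO, each with the AhR inhibitor and without it, also to day 12; their labels give no vitamin B2 status. Hepatocytes of AhR-flox mice, all of them carrying the floxed allele, received Ad-Cre or Ad-Cont and were deprived or control, with a label of 4 weeks. Mouse livers were taken at 4 weeks, deprived and control. Each group had 3 libraries, except for the livers with 4 columns per diet. The labels used here do not give inhibitor names, the guide site, the floxed exon, or the strain or age of the mice. Nor do they say whether the guide cells were a pool or 1 clone. Column headers give 10 uM for the AhR inhibitor of the deprived and control cells. They give no dose for that of the Kyn and DMSO cells, so whether the doses matched is not known. The liver columns number 8 for 10 labelled samples, and the other samples are not analysed here. No label ties replicates to different cultures or animals, and the p-values therefore reflect the variation of these libraries, which may be technical.

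In the integrated stress response, kinases that sense amino acid shortage, unfolded protein, haem deficiency or viral RNA phosphorylate the translation factor eIF2. General protein synthesis then falls, while the mRNA of the transcription factor ATF4 is translated more efficiently, so that ATF4 activity can change without a change in its mRNA. ATF4 binds together with C/EBP proteins and drives genes that make, import and charge amino acids. In the liver the response is also known for the secreted hormones FGF21 and GDF15.

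The composite element bound by C/EBP and ATF4 proteins has the core TGATGNAA. RefSeq promoters (GRCh38.p14, 250 bases before to 50 bases after the annotated start) were matched for 35 of the 45 genes and searched for these letters on both strands. Among them, 10 promoters held the letters, 28.6%, against 1003 of all 27305 promoters, 3.67%. The windows of 9 of them are shown because these genes span all 6 roles. A match describes letters only. The 45 were chosen as genes of the integrated stress response and amino acid supply, so the higher share is not independent of that choice. Promoters without the letters included those of GDF15, DDIT4, PPP1R15A and STC2. Each line gives the gene's own strand, 5′ to 3′, with the match in capitals and up to 20 bases on either side; a match on the other strand reads TTNCATCA.
ATF3: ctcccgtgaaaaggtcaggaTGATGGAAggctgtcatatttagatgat
CHAC1: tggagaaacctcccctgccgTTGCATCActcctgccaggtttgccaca
FGF21: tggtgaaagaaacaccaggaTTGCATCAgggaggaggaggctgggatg
ASNS: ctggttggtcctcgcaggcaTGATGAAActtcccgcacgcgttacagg
SLC3A2: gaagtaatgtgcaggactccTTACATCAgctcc
AARS: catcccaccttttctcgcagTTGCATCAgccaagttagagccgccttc
MARS: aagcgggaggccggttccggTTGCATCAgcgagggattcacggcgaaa
CARS: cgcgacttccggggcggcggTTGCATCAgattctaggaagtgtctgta
TARS: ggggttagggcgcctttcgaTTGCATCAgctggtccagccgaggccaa

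The match in ASNS, the gene of asparagine synthetase, lay at bases -68 to -61 from the annotated start. Its whole promoter window (GRCh38.p14, chr7:97872359-97872658, minus strand) is printed because ASNS was higher in deprived cells at all 4 days of the HepG2 time course and in Caco-2 cells, with the match in capitals.
ASNS promoter: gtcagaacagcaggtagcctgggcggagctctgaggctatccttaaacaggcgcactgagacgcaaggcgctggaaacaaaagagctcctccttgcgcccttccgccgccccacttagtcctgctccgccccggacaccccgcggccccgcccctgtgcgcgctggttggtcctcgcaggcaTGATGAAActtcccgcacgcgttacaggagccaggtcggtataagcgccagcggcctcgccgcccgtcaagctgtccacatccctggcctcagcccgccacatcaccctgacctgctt

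Values are in TPM, read shares scaled for transcript length, and describe a gene between samples of a table, not one gene against another, since the protocols describe 3′ libraries, for cultured cells at least. Depth recovered from the values ranged from 4049600 to 19644000 reads per library. Fold changes are differences of mean log2(TPM + 1) ± standard error from limma, and adjusted p-values are Benjamini-Hochberg values over all genes tested in a table, called under 0.05. A gene was tested where 3 libraries (in liver, 4) reached 1 TPM, which left 43 or 44 of the 45 genes in the cell tables and 34 in liver. The 8 hepatocyte markers were each detected in HepG2 cells, and their summed level at day 12 was 13469.8 to 13757.7 TPM in deprived libraries and 32931.6 to 34592.8 TPM in control libraries. In Caco-2, 5 of 8 enterocyte markers averaged at least 1 TPM, with sums of 87.4 to 93.9 TPM in deprived and 142 to 150 TPM in control libraries, while hepatocyte markers summed to 2666 to 2904 and 4141 to 4265 TPM. Stellate cell markers summed to 138 to 146 TPM in deprived and 32.9 to 38.9 TPM in control HepG2 libraries at day 12. The part of these marker differences in the results was not tested. Pseudogenes named after 13 of the 45 genes are annotated, ATF4 and ASNS among them, and could share reads with them. Replicate 3 of the control HepG2 cells with AhR inhibitor stood apart from its group. In these bulk samples, fewer cells of a type and less RNA per cell cannot be told apart.

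Deprivation of HepG2 cells was accompanied by higher mRNA of most of these genes at days 3, 6 and 9, and of fewer at day 12. At day 3, 29 of the 43 genes tested were higher and 1 lower, where 2.74% of all 12488 genes were higher and 2% lower. At day 6 the counts were 37 higher and 2 lower, against 19% and 14% of all genes, and at day 9 they were 33 and 4, against 29.4% and 19.7%. At day 12, 20 were higher and 9 lower, where 34% of all genes were higher and 18.4% lower. The median log2 fold change of the genes tested was 0.40, 0.76, 0.51 and 0.11 over the 4 days, beside 0.02, 0.03, 0.06 and 0.10 over all genes. The day 12 split of 20 and 9 became 18 and 15 after quantile normalization, 18 and 11 after median scaling and 29 and 8 with voom on recovered reads.

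**Figure D1:**
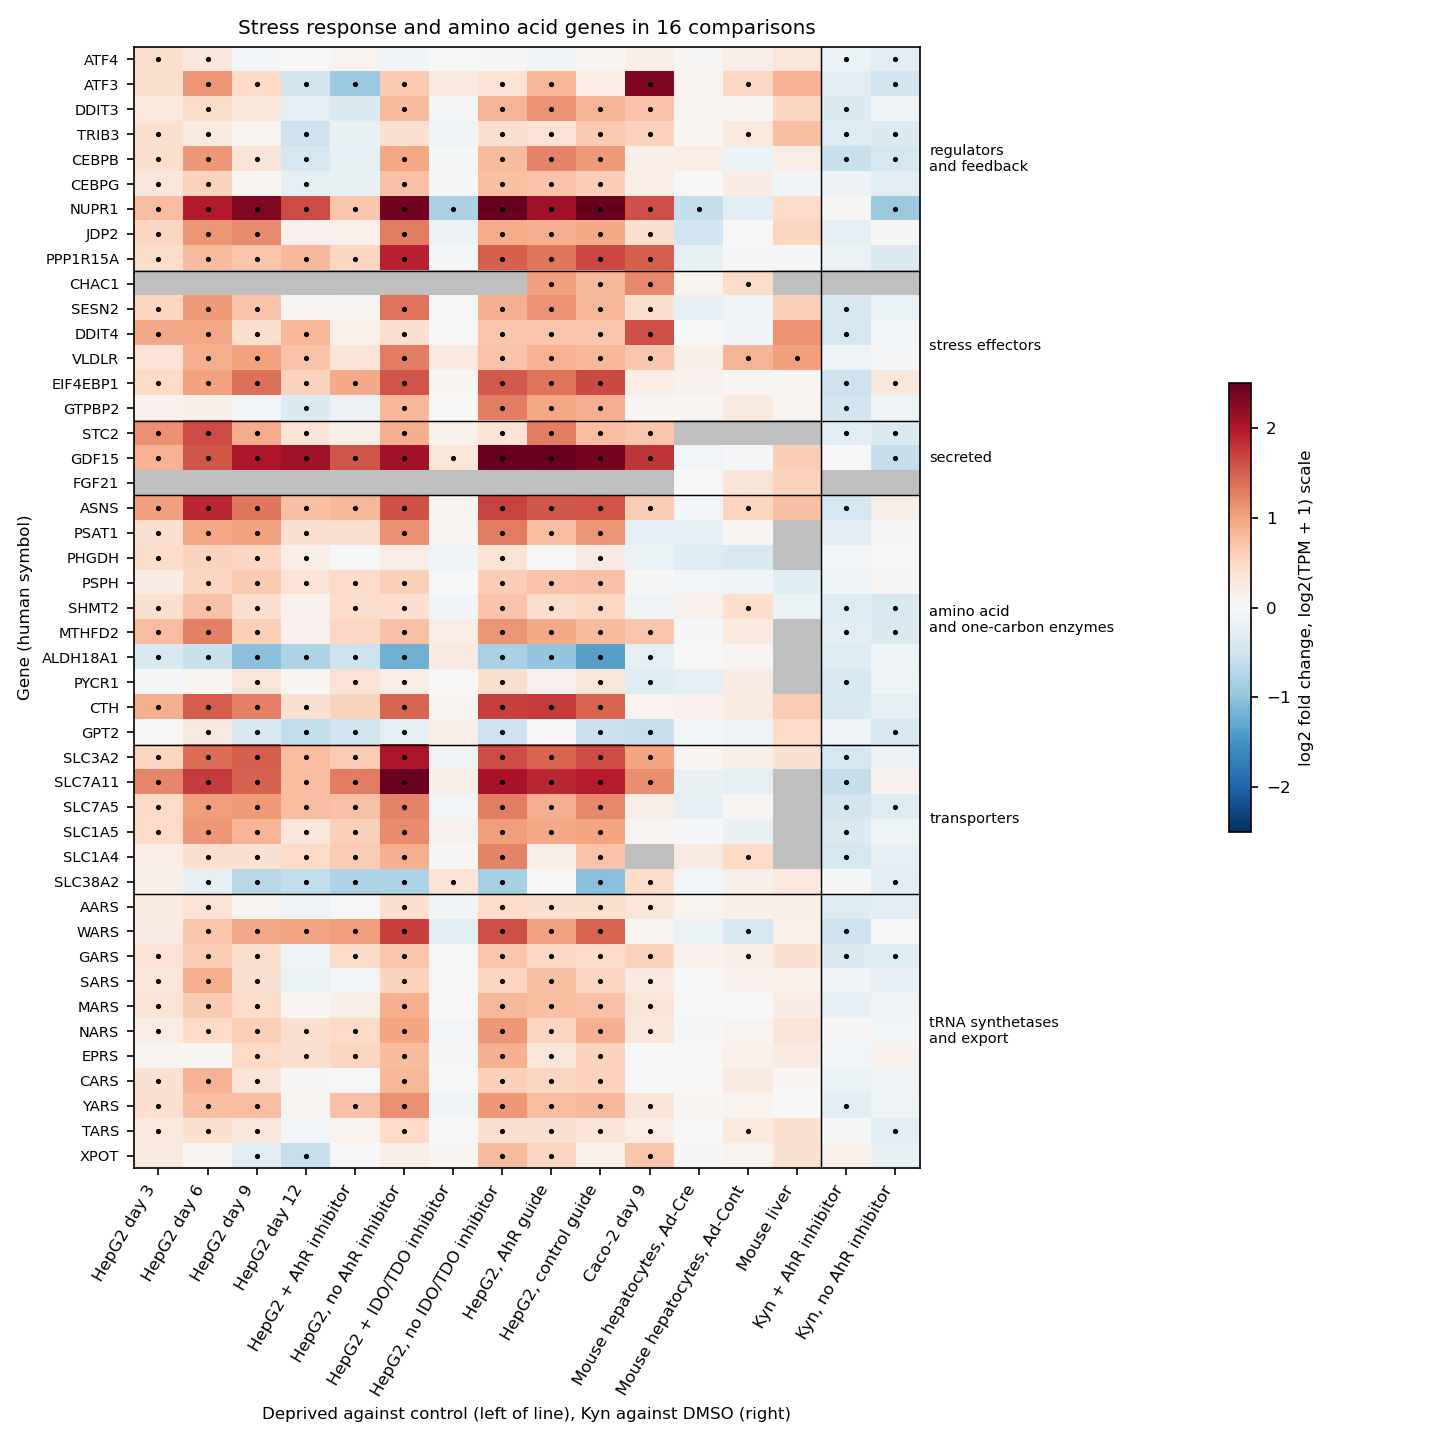
Log2 fold changes of the 45 genes (rows, by role) in 14 comparisons of deprived with control samples and in 2 comparisons of Kyn with DMSO (columns); red is higher and blue lower, dots mark adjusted p under 0.05 and grey marks genes that were not tested. Most rows are red in HepG2 without inhibitor, pale with the IDO/TDO inhibitor and in mouse hepatocytes with Ad-Cre, and ALDH18A1 and SLC38A2 are blue in most HepG2 columns.

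Among the regulators, ATF4 itself was higher in deprived cells at days 3 and 6 and did not pass at days 9 and 12. ATF4 had 101, 104 and 108 TPM in deprived cells, against 70.7, 77.3 and 82.8 TPM in control cells at day 3, without overlap (0.43 ± 0.06, adjusted p = 1.2e-04). At day 6 it had 103, 98.2 and 97.8 TPM in deprived cells, against 85.6, 80.0 and 81.1 TPM in control cells, a change of 0.27 ± 0.06, adjusted p = 0.0014. The groups overlapped at day 9, with 110, 107 and 97.2 TPM in deprived cells, against 110, 111 and 109 TPM in control cells (-0.07 ± 0.06, adjusted p = 0.35). They also overlapped at day 12, with 101, 105 and 108 TPM in deprived cells, against 97.0, 103 and 115 TPM in control cells (95% interval of the log2 fold change -0.13 to 0.13). The level in control cells was higher at the later days, while the 12 deprived libraries lay between 97.2 and 110 TPM.

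DDIT3, which encodes the stress transcription factor CHOP, had 33.7, 35.0 and 35.9 TPM in deprived cells, against 23.9, 28.1 and 23.0 TPM in control cells at day 6 (0.47 ± 0.15, adjusted p = 0.02). It did not pass at day 3 (0.27), at day 9 (0.30) or at day 12 (-0.24). At day 12 it had 44.0, 43.3 and 42.4 TPM in deprived cells, against 39.1, 45.6 and 75.6 TPM in control cells, with 1 control library above all others. TRIB3, a pseudokinase that feeds back on ATF4 and CHOP, had 32.7, 34.6 and 32.1 TPM in deprived cells, against 23.3, 26.5 and 25.1 TPM in control cells at day 3 (0.40 ± 0.08, adjusted p = 0.0031). The order was turned round at day 12, when TRIB3 had 36.1, 33.3 and 34.2 TPM in deprived cells, against 52.3, 44.0 and 54.6 TPM in control cells (-0.52 ± 0.08, adjusted p = 5.7e-06). Its level in deprived cells was much the same at days 3 and 12, and the control cells were the ones that differed between days.

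CEBPB, a dimer partner of ATF4, was higher in deprived cells early and lower at day 12. At day 6 it had 105, 121 and 121 TPM in deprived cells, against 56.1, 51.4 and 55.3 TPM in control cells (1.07 ± 0.06, adjusted p = 1.0e-11). At day 12 it had 138, 131 and 133 TPM in deprived cells, against 180, 169 and 190 TPM in control cells (-0.42 ± 0.06, adjusted p = 7.4e-06). ATF3, another stress-induced factor, was higher in deprived cells at day 6 (1.10) and day 9 (0.51) and lower at day 12 (-0.46). CEBPG was higher at day 3 (0.29) and day 6 (0.57) and lower at day 12 (-0.24). JDP2, an AP-1 repressor, was higher at days 3, 6 and 9 (0.54, 1.11 and 1.19).

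NUPR1 and PPP1R15A were higher at all 4 days. NUPR1, a small stress-induced nuclear protein, had 127, 141 and 130 TPM in deprived cells, against 72.2, 77.6 and 80.6 TPM in control cells at day 3. By day 9 the groups were farther apart, at 142, 113 and 110 TPM in deprived cells, against 20.3, 22.7 and 28.5 TPM in control cells (2.31 ± 0.13, adjusted p = 2.2e-11). Here the level in control cells was lower at the later days, and the 12 deprived libraries lay between 108 and 142 TPM. PPP1R15A, the subunit that leads a phosphatase back to eIF2, had log2 fold changes of 0.46, 0.80, 0.69 and 0.81 at days 3, 6, 9 and 12.

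**Figure D2:**
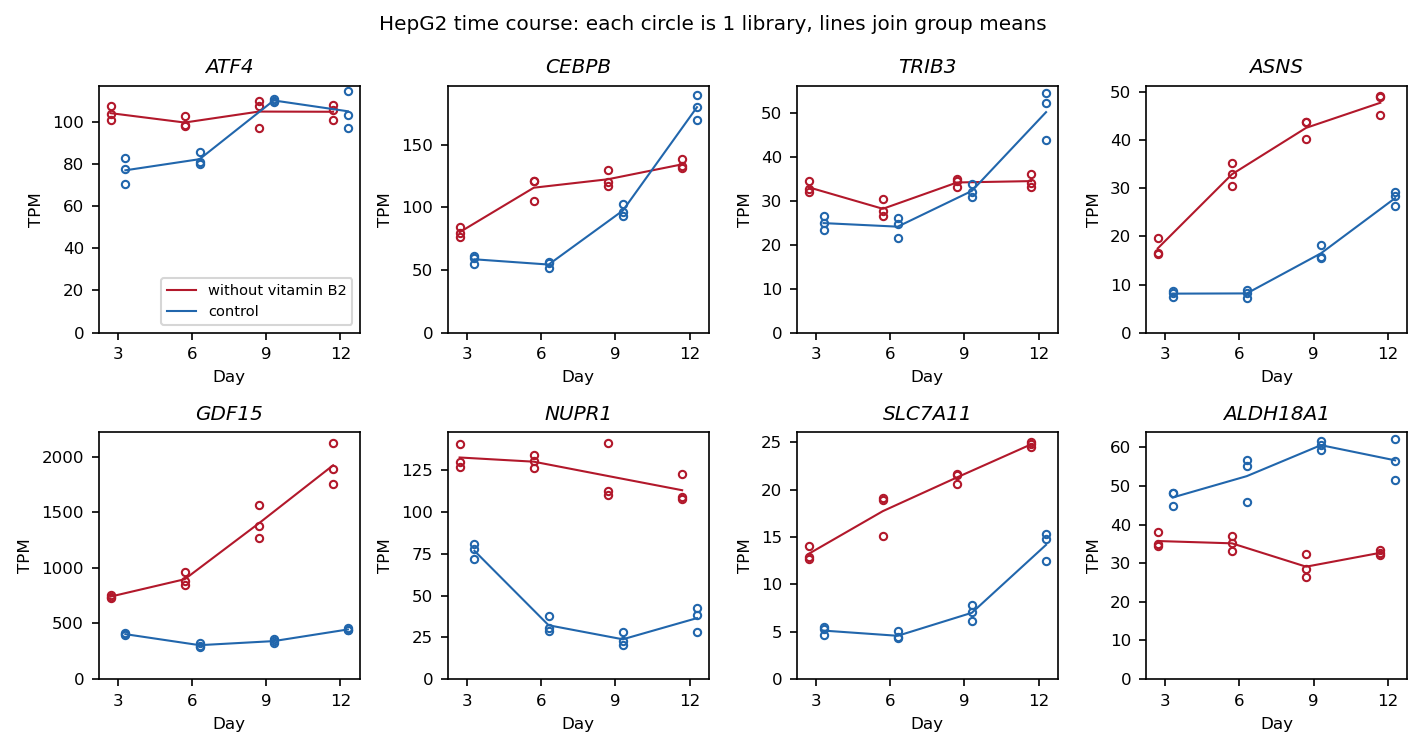
TPM (y axis, from 0) of 8 genes in HepG2 cells at days 3, 6, 9 and 12 (x axis), in cells without vitamin B2 (red, left of each day) and control cells (blue, right); circles are libraries and lines join group means. GDF15 of deprived cells lies above that of controls at each day and reaches 1752 to 2125 TPM at day 12, whereas CEBPB and TRIB3 of control cells lie above those of deprived cells at day 12.

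Of the effectors, DDIT4, an inhibitor of mTORC1 signalling, was higher at all 4 days. It had 57.3, 54.2 and 57.8 TPM in deprived cells, against 28.3, 29.0 and 28.8 TPM in control cells at day 3 (0.95 ± 0.07, adjusted p = 1.4e-08) and 98.8, 97.5 and 95.5 TPM in deprived cells, against 48.9, 51.0 and 64.1 TPM in control cells at day 12 (0.83 ± 0.07, adjusted p = 2.8e-09). EIF4EBP1, which holds back cap-dependent translation, was also higher at each day, most at day 9, with 66.1, 73.7 and 62.9 TPM in deprived cells, against 23.2, 25.9 and 27.4 TPM in control cells (1.37 ± 0.09, adjusted p = 2.4e-11). SESN2, a leucine-sensing inhibitor of mTORC1, was higher at days 3, 6 and 9 (0.54, 1.07 and 0.72) and did not pass at day 12 (0.04). The receptor gene VLDLR was higher from day 6 (0.91, 1.01 and 0.71), at 0.792 to 3.88 TPM in all 24 libraries. GTPBP2 passed only at day 12, where it was lower (-0.34). CHAC1, a glutathione-degrading enzyme, was at or below 0.856 TPM in every library and was not tested.

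The secreted factor GDF15, a stress hormone of the TGF-β family, showed a growing difference. At day 3 it had 755, 738 and 731 TPM in deprived cells, against 401, 410 and 401 TPM in control cells (0.87 ± 0.07, adjusted p = 2.7e-08). At day 12 it had 1752, 2125 and 1888 TPM in deprived cells, against 442, 459 and 438 TPM in control cells (2.10 ± 0.07, adjusted p = 1.4e-16). The lowest deprived library exceeded the highest control library at every day. STC2, a secreted glycoprotein, had its largest difference at day 6, with 58.9, 66.5 and 66.1 TPM in deprived cells, against 20.6, 19.9 and 19.1 TPM in control cells (1.64 ± 0.05, adjusted p = 8.8e-16), and a smaller one at day 12 (0.34). FGF21 was at or below 0.333 TPM in all 24 libraries and was not tested.

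Among the enzymes, ASNS had the highest log2 fold change at each of the 4 days. It had 16.5, 19.6 and 16.4 TPM in deprived cells, against 8.21, 7.44 and 8.67 TPM in control cells at day 3 (1.02 ± 0.08, adjusted p = 2.4e-08) and 30.5, 35.4 and 32.9 TPM in deprived cells, against 8.94, 8.22 and 7.29 TPM in control cells at day 6 (1.89 ± 0.08, adjusted p = 5.8e-14). At day 12 it had 45.3, 49.2 and 49.0 TPM in deprived cells, against 29.2, 26.4 and 28.5 TPM in control cells (0.75 ± 0.08, adjusted p = 7.6e-08). Both groups were higher at day 12 than at day 3, and the deprived libraries lay above the controls at each day. CTH, which makes cysteine from cystathionine, had 7.45, 11.46 and 10.8 TPM in deprived cells, against 2.29, 2.93 and 3.09 TPM in control cells at day 6 (1.52 ± 0.15, adjusted p = 4.5e-08) and passed at each day.

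The serine and one-carbon enzymes were higher by smaller amounts than ASNS. PSAT1, the transaminase of serine synthesis, had 85.3, 88.6 and 87.8 TPM in deprived cells, against 65.5, 71.0 and 62.8 TPM in control cells at day 3 (0.39 ± 0.06, adjusted p = 6.9e-04) and 130, 132 and 152 TPM in deprived cells, against 71.7, 65.4 and 67.1 TPM in control cells at day 9 (1.01 ± 0.06, adjusted p = 1.8e-11). It still passed at day 12 (0.41). PHGDH, the first enzyme of that pathway, ranged from 0.17 at day 12 to 0.56 at day 6 and passed at each day. PSPH, the last enzyme, passed from day 6 (0.53, 0.65 and 0.36). The mitochondrial one-carbon enzymes MTHFD2 and SHMT2 were higher at days 3, 6 and 9, with MTHFD2 at 1.26 and SHMT2 at 0.73 at day 6, and neither passed at day 12 (0.10 and 0.11).

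ALDH18A1 went the other way, and GPT2 did so at the later days. ALDH18A1, the first enzyme of proline synthesis, had 34.8, 34.4 and 38.0 TPM in deprived cells, against 48.2, 44.7 and 48.1 TPM in control cells at day 3 (-0.39 ± 0.08, adjusted p = 0.0048) and 28.4, 26.4 and 32.5 TPM in deprived cells, against 60.7, 59.4 and 61.6 TPM in control cells at day 9 (-1.04 ± 0.08, adjusted p = 3.7e-10). Every deprived library lay below every control library of its day, and the call also held at day 6 (-0.56) and day 12 (-0.77). PYCR1, which completes proline synthesis, passed only at day 9, where it was higher (0.30). GPT2, the mitochondrial alanine transaminase, was higher at day 6 (0.22) and lower at day 9 (-0.38) and day 12, when it had 69.2, 65.7 and 68.0 TPM in deprived cells, against 114, 105 and 93.6 TPM in control cells (-0.62 ± 0.07, adjusted p = 9.4e-08).

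Of the 6 transporters, 5 were higher from day 6 onward. SLC7A11, the cystine importer, had 12.7, 14.1 and 12.9 TPM in deprived cells, against 5.47, 5.25 and 4.66 TPM in control cells at day 3 (1.22 ± 0.09, adjusted p = 1.1e-08). At day 6 it had 15.1, 19.2 and 19.0 TPM in deprived cells, against 5.03, 4.40 and 4.29 TPM in control cells (1.74 ± 0.09, adjusted p = 1.7e-12). SLC3A2, the heavy chain shared by SLC7A11 and the leucine carrier SLC7A5, had 134, 137 and 133 TPM in deprived cells, against 47.7, 47.6 and 46.7 TPM in control cells at day 9 (1.49 ± 0.07, adjusted p = 2.6e-14). SLC7A5 reached 1.06 at day 9, the glutamine carrier SLC1A5 1.09 at day 6, and SLC1A4 0.47 at day 12. SLC38A2, a glutamine and alanine importer, was lower from day 6 and had 101, 109 and 106 TPM in deprived cells, against 174, 183 and 160 TPM in control cells at day 9 (-0.70 ± 0.08, adjusted p = 2.4e-07). Its level in deprived cells lay between 96.7 and 119 TPM at all 4 days, while control libraries reached 143 to 201 TPM at day 12.

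The aminoacyl-tRNA synthetases, which load tRNAs with amino acids, were higher at days 6 and 9 in most cases. With the tRNA export factor XPOT, 7, 9, 9 and 3 of 11 genes passed as higher at days 3, 6, 9 and 12. Of all genes, 2.74%, 19%, 29.4% and 34% were higher at those days. The count at day 12 lay below that share. WARS, the tryptophan synthetase, had the largest difference of the group at day 12, with 14.2, 16.4 and 14.0 TPM in deprived cells, against 6.34, 6.54 and 8.14 TPM in control cells at day 12 (0.99 ± 0.11, adjusted p = 8.4e-08). NARS (0.40) and EPRS (0.43) were the other members of the group that were higher at day 12. SARS had its largest difference at day 6 (0.92), as had CARS (0.87). XPOT was lower at day 9 (-0.29) and at day 12, when it had 5.12, 5.37 and 5.36 TPM in deprived cells, against 8.08, 8.56 and 8.42 TPM in control cells (-0.57 ± 0.07, adjusted p = 5.4e-07).

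The deprivation effect itself differed between days. The effect at day 12 minus that at day 3 was positive past the threshold for 7 of 43 genes and negative for 24, where 23.8% and 13.9% of all genes were. The largest differences were GDF15 at 1.23 ± 0.10, adjusted p = 2.9e-09 and TRIB3 at -0.92 ± 0.11, adjusted p = 7.1e-07. The effect at day 12 minus that at day 6 was positive for 2 genes and negative for 31, against 20.4% and 11.9% of all genes, with ATF3 at -1.55 ± 0.18, adjusted p = 1.1e-06 and CEBPB at -1.49 ± 0.09, adjusted p = 2.8e-11. Among the genes of the time course named above, calls that some fits leaving out a library lost were kept as follows. At day 3 they were CEBPG in 2 of 6 (adjusted p up to 0.13) and SARS in 3 of 6 (adjusted p up to 0.062). At day 6 they were DDIT3 in 2 of 6 (adjusted p up to 0.076), TRIB3 in 3 of 6 (adjusted p up to 0.21), GPT2 in 3 of 6 (adjusted p up to 0.077) and SLC38A2 in 3 of 6 (adjusted p up to 0.065). At day 12 they were CEBPG in 5 of 6 (adjusted p up to 0.053, lost without control replicate 3), GTPBP2 in 3 of 6 (adjusted p up to 0.082), PHGDH in 4 of 6 (adjusted p up to 0.1, lost without control replicate 2 and without deprived replicate 3) and CTH in 2 of 6 (adjusted p up to 0.13). The split of 7 and 24 was 4 and 29 after quantile normalization and 11 and 20 with voom.

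Control cells changed over the same days. Between control cells at day 12 and at day 3, 32 of 43 genes were higher and 5 lower, where 20.1% of all genes were higher and 46.8% lower. ATF3 had 15.2, 14.0 and 14.6 TPM in control cells at day 12, against 2.13, 3.53 and 3.58 TPM in control cells at day 3 (1.96 ± 0.13, adjusted p = 9.7e-12). ASNS (1.67), JDP2 (1.61), CEBPB (1.60) and CTH (1.58) were the next largest increases, and NUPR1 (-1.07) fell most. In deprived cells at day 12 against day 3, 27 genes were higher and 2 lower (14.4% and 35.3% of all genes), with ASNS at 1.40 and GDF15 at 1.37. The hepatocyte markers of deprived cells summed to 13469.8 to 13757.7 TPM at day 12 and 13183 to 13471 TPM at day 3, against 32931.6 to 34592.8 TPM at day 12 and 13728 to 14318 TPM at day 3 in control cells. Their part in the changes over time was not tested.

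Other genes of the pathway were counted beside the shares of all genes that were higher, 2.74%, 19%, 29.4% and 34% at days 3, 6, 9 and 12. The eIF2 kinases and factors, at 23.1%, 38.5% and 30.8% at days 6, 9 and 12, and the mitochondrial synthetases, at 17.6% at day 6, were near those shares. Of 13 other cytosolic synthetase genes, 0, 4, 8 and 9 were higher at days 3, 6, 9 and 12 and 0, 0, 1 and 2 lower, with VARS at 1.11 at day 9 and AIMP1, a scaffold of the synthetase complex, at 0.92 at day 12. Of 17 mitochondrial synthetase genes, 0, 3, 9 and 9 were higher and 0, 2, 1 and 0 lower, with MARS2 at 1.09 at day 9. Of 13 eIF2 kinase and factor genes, 0, 3, 5 and 4 were higher and 0, 1, 2 and 1 lower, and EIF2AK3, the kinase PERK that senses unfolded protein, was lower at day 6 (-0.66) and day 9 (-0.96). Of 19 other amino acid and one-carbon genes tested, 4, 11, 13 and 9 were higher and 0, 1, 4 and 4 lower, with MTHFD1L at 0.88 and the arginine carrier SLC7A1 at 0.87 at day 6.

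Caco-2 cells shared the rise in part, with a different order of genes. Of the 43 genes tested, 25 were higher and 3 lower in deprived cells at day 9, where 14.3% and 19.5% of all 11888 genes were. The median log2 fold change was 0.30, beside -0.07 over all genes. ATF3 led, with 31.9, 30.1 and 43.3 TPM in deprived cells, against 5.58, 6.13 and 6.56 TPM in control cells (2.33 ± 0.13, adjusted p = 9.6e-07). GDF15 had 597, 576 and 616 TPM in deprived cells, against 170, 170 and 176 TPM in control cells (1.79 ± 0.05, adjusted p = 9.9e-09). For both genes the groups stood several-fold apart. The libraries of a group lay close together for GDF15, while for ATF3 the deprived library at 43.3 TPM lay above the other deprived libraries.

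NUPR1 followed with 15.8, 15.1 and 12.3 TPM in deprived cells, against 3.70, 5.17 and 3.27 TPM in control cells (1.62 ± 0.15, adjusted p = 2.5e-05). DDIT4 had 69.3, 63.9 and 83.0 TPM in deprived cells, against 20.9, 22.7 and 24.6 TPM in control cells (1.62 ± 0.10, adjusted p = 1.8e-06), and PPP1R15A had 100, 95.7 and 112 TPM in deprived cells, against 35.4, 37.8 and 34.3 TPM in control cells (1.49 ± 0.07, adjusted p = 3.1e-07). CHAC1, too low to test in the HepG2 time course, was measurable here. It had 10.8, 11.47 and 15.2 TPM in deprived cells, against 5.74, 5.41 and 3.63 TPM in control cells (1.19 ± 0.16, adjusted p = 5.1e-04).

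DDIT3 had 92.8, 92.8 and 110 TPM in deprived cells, against 59.6, 63.8 and 56.1 TPM in control cells (0.71 ± 0.08, adjusted p = 8.9e-05), and TRIB3 had 57.2, 54.2 and 58.1 TPM in deprived cells, against 38.0, 36.3 and 38.6 TPM in control cells (0.57 ± 0.06, adjusted p = 7.6e-05). ATF4 did not pass, at 140, 134 and 141 TPM in deprived cells, against 120, 117 and 133 TPM in control cells (0.17 ± 0.06, adjusted p = 0.055). By role, 6 of 9 regulators, 4 of 6 effectors and 2 of 10 enzymes were higher, where 14.3% of all genes were. The count of enzymes was near that share. The rest of the higher genes were secreted factors, transporters, and genes of tRNA charging and export. One of the effectors, VLDLR, had 1.26, 2.26 and 2.44 TPM in deprived cells, against 0.899, 0.714 and 0.933 TPM in control cells, so it passed the filter through its deprived libraries alone and its presence among the genes tested already required a difference. ASNS had 24.3, 22.3 and 25.6 TPM in deprived cells, against 15.1, 15.0 and 15.4 TPM in control cells (0.63 ± 0.08, adjusted p = 2.1e-04), and MTHFD2 was the other enzyme that rose (0.69).

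The 3 lower genes in Caco-2 were enzymes. GPT2 had 11.7, 12.9 and 13.8 TPM in deprived cells, against 21.1, 18.7 and 19.2 TPM in control cells (-0.58 ± 0.09, adjusted p = 7.3e-04). PYCR1 had 37.3, 37.8 and 28.0 TPM in deprived cells, against 42.8, 44.2 and 40.6 TPM in control cells (-0.31 ± 0.11, adjusted p = 0.046), and ALDH18A1 had 27.0, 23.3 and 23.4 TPM in deprived cells, against 27.4, 29.3 and 30.0 TPM in control cells (-0.23 ± 0.08, adjusted p = 0.048). The calls of PYCR1 and ALDH18A1 were kept in only 2 of the 6 fits that left out a library. PSAT1 was low, at 3.67, 3.27 and 2.64 TPM in deprived cells, against 3.10, 4.83 and 3.85 TPM in control cells, and did not pass (-0.23). SLC38A2 was higher here (0.46), and FGF21 was at or below 0.085 TPM. Of the 16 mitochondrial synthetases tested 0 were higher and 4 lower (25.0%, near the 19.5% of all genes), among them SARS2 at -0.84.

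At day 12, deprived and control HepG2 cells without inhibitor were measured again in 3 further tables, which share no samples with the time course. Without AhR inhibitor, 36 of 43 were higher and 3 lower, against 44.6% and 16.9% of all 11916 genes. Without IDO/TDO inhibitor, 39 of 43 were higher and 3 lower, against 53.6% and 14.3% of 11470. With the control guide, 38 of 44 were higher and 3 lower, against 43.6% and 17.1% of 11893. The medians of 0.83, 0.84 and 0.78 stood beside 0.23, 0.30 and 0.20 over all genes. The all-gene shift went away with median scaling, which left medians of 0.61, 0.53 and 0.58 for these genes. The hepatocyte markers summed to 13201 to 13893, 19946 to 20751 and 17169 to 17864 TPM in the 3 sets of deprived cells, against 41381 to 42927, 46873 to 47951 and 42130.3 to 44306 TPM in their controls, and their part was not tested.

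The control cells of these tables differed from those of the time course in level. CEBPB was at 42.5, 46.9 and 43.8, 73.0, 74.1 and 69.3, and 60.5, 66.8 and 88.4 TPM in the 3 sets of controls, and at 180, 169 and 190 TPM in the time course at day 12. The tables were normalized separately, so no test was made across them. In the same tables CEBPB of deprived cells was higher than that of controls, by 0.96, 0.80 and 1.06.

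NUPR1, GDF15 and SLC7A11 were among the 5 largest increases in each of the 3 tables. NUPR1 had 267, 265 and 263 TPM in deprived cells, against 38.99, 31.7 and 33.3 TPM in control cells in the IDO/TDO table (2.91 ± 0.10, adjusted p = 2.5e-12). GDF15 had 3436, 3471 and 3326 TPM in deprived cells, against 557, 550 and 494 TPM in control cells there (2.68 ± 0.06, adjusted p = 5.8e-15). SLC7A11 had 24.1, 25.1 and 24.1 TPM in deprived cells, against 3.58, 3.76 and 3.45 TPM in control cells in the AhR inhibitor table (2.47 ± 0.20, adjusted p = 7.4e-07). These groups lay far apart beside the spread within them. SLC3A2 had 160, 159 and 155 TPM in deprived cells, against 38.0, 41.7 and 33.9 TPM in control cells (2.03 ± 0.23, adjusted p = 4.4e-05), and PPP1R15A had 16.6, 16.3 and 19.1 TPM in deprived cells, against 4.27, 3.12 and 4.10 TPM in control cells (1.93 ± 0.15, adjusted p = 2.1e-07). CTH, ASNS and EIF4EBP1 reached 1.71, 1.69 and 1.64 in the tables where they were among the top 5.

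ATF4 mRNA did not pass in any of the 3 tables, at -0.09, 0.03 and 0.06. Median scaling turned the second of these to -0.28, past the threshold (limma, adjusted p = 0.0065). In the IDO/TDO table it had 146, 137 and 140 TPM in deprived cells, against 150, 128 and 138 TPM in control cells (95% interval -0.11 to 0.16). DDIT3 had 69.2, 67.5 and 62.5 TPM in deprived cells, against 34.1, 36.4 and 39.03 TPM in control cells (0.85 ± 0.08, adjusted p = 9.4e-08), and TRIB3 had 78.4, 77.3 and 73.8 TPM in deprived cells, against 55.4, 57.0 and 57.8 TPM in control cells (0.42 ± 0.06, adjusted p = 1.0e-05). Neither gene overlapped between groups. PSAT1 had 111, 114 and 118 TPM in deprived cells, against 41.4, 47.4 and 48.8 TPM in control cells (1.30 ± 0.09, adjusted p = 1.9e-09). CHAC1 was at 1.20, 0.840 and 0.961 TPM in deprived cells, against 0.476, 0.105 and 0.149 TPM in control cells, too low to test, and FGF21 was at or below 0.233 TPM in the 3 tables.

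The genes that were lower were the same 3 in each table, ALDH18A1, SLC38A2 and GPT2. ALDH18A1 had 13.8, 13.2 and 13.0 TPM in deprived cells, against 37.9, 36.0 and 33.8 TPM in control cells with the control guide (-1.37 ± 0.07, adjusted p = 2.4e-09). SLC38A2 had 125, 130 and 129 TPM in deprived cells, against 198, 238 and 252 TPM in control cells in the IDO/TDO table (-0.83 ± 0.08, adjusted p = 1.8e-07). GPT2 had 105, 100 and 95.9 TPM in deprived cells, against 125, 144 and 162 TPM in control cells there (-0.51 ± 0.08, adjusted p = 3.7e-05). Of the other cytosolic synthetases, 9, 10 and 10 of 13 were higher in the 3 tables, where 44.6%, 53.6% and 43.6% of all genes were.

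**Figure D3:**
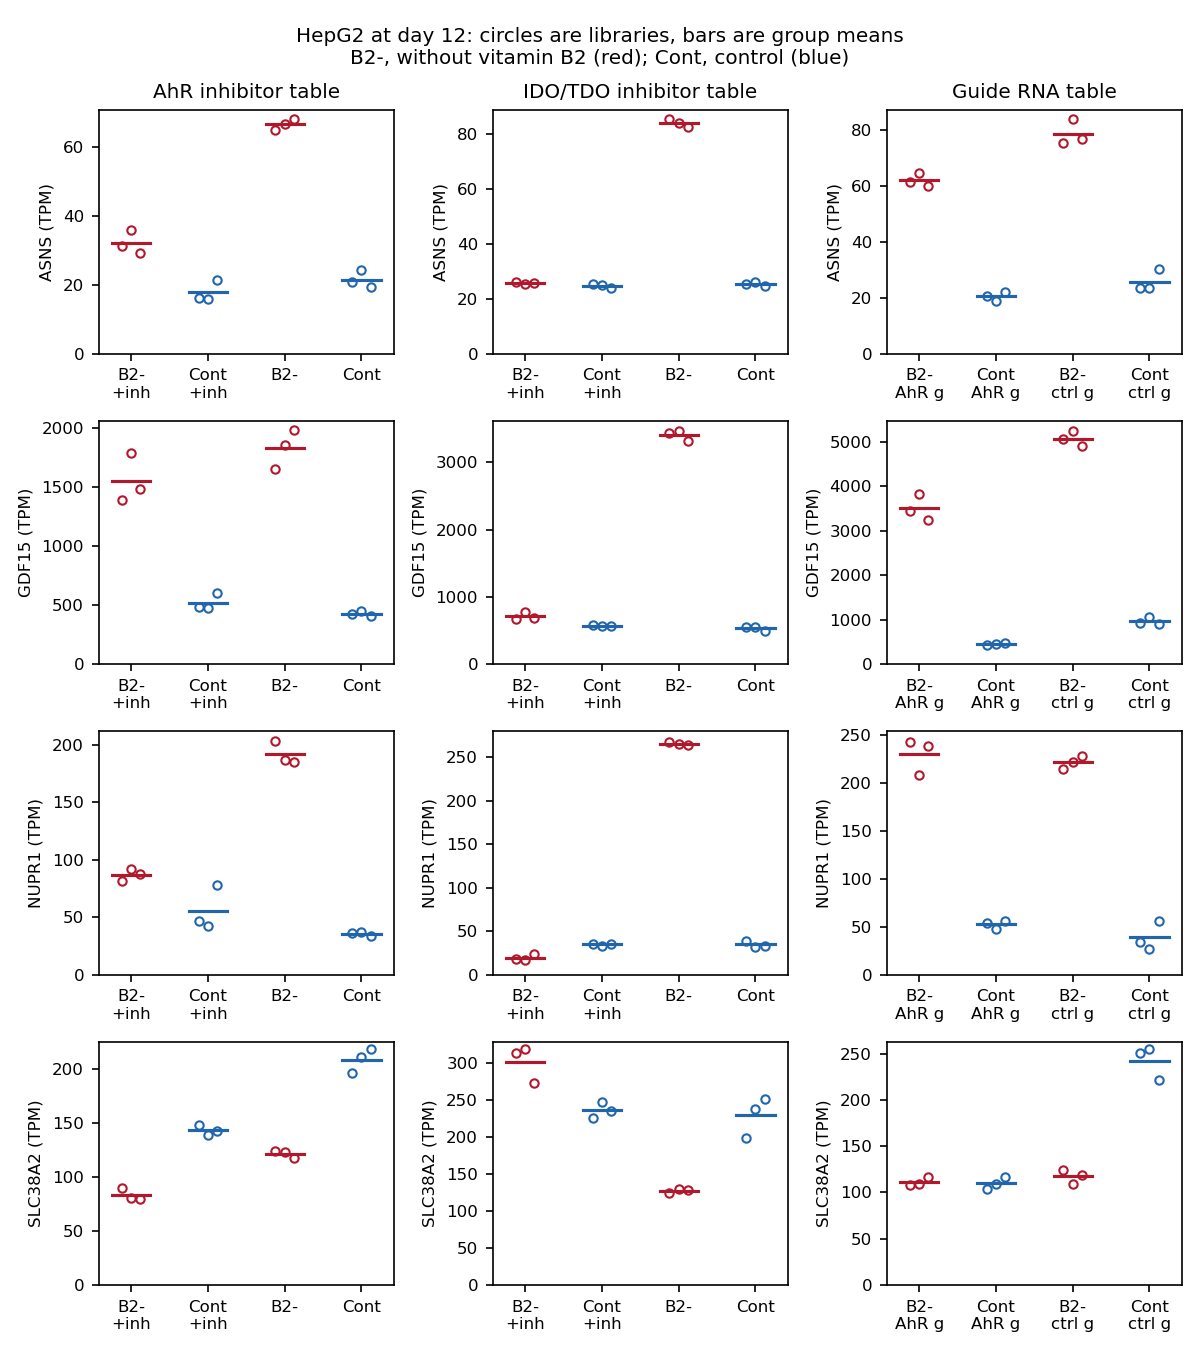
TPM (y axes, from 0) of ASNS, GDF15, NUPR1 and SLC38A2 (rows) in HepG2 cells at day 12 in the AhR inhibitor, IDO/TDO inhibitor and guide RNA tables (columns); red is without vitamin B2, blue is control, circles are libraries and bars group means. With the IDO/TDO inhibitor deprived and control cells lie close together for ASNS, while with the AhR guide the 2 groups stay apart for ASNS, GDF15 and NUPR1 and lie together for SLC38A2.

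With the AhR inhibitor the difference between deprived and control cells was smaller for many of the genes. The libraries with inhibitor carry another date in their column headers than those without, and the headers do not say what it marks. The inhibitor and whatever goes with that date cannot be told apart, neither in the effect of the inhibitor nor in the difference between effects. Depth differed in the same way, at 12577700 to 19428000 reads per library with inhibitor and 5891600 to 8976000 without it. Deprived against control cells, both with inhibitor and with the same header date, gave 18 higher and 4 lower genes of 43. Of all genes, 45.1% were higher and 12.4% lower. Without control replicate 3 the counts were 30 and 4, against 51.3% and 12.9% of all genes. The split of 18 and 4 was 14 and 8 after quantile normalization and 11 and 9 after median scaling.

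GDF15 had 1386, 1784 and 1482 TPM in deprived cells with inhibitor, against 480, 474 and 601 TPM in control cells with inhibitor (1.58 ± 0.11, adjusted p = 1.1e-07). SLC7A11 had 18.0, 16.2 and 17.4 TPM in deprived cells with inhibitor, against 4.95, 4.96 and 10.7 TPM in control cells with inhibitor (1.29 ± 0.20, adjusted p = 1.6e-04), and WARS had 15.2, 17.4 and 15.3 TPM in deprived cells with inhibitor, against 6.55, 4.65 and 11.9 TPM in control cells with inhibitor (1.04 ± 0.23, adjusted p = 0.0028). In each of them control replicate 3 was the highest control library. ASNS had 31.4, 36.0 and 29.4 TPM in deprived cells with inhibitor, against 16.3, 15.8 and 21.4 TPM in control cells with inhibitor (0.83 ± 0.12, adjusted p = 4.7e-05), and EIF4EBP1 had 67.8, 72.9 and 65.0 TPM in deprived cells with inhibitor, against 29.2, 25.2 and 58.2 TPM in control cells with inhibitor (0.95 ± 0.24, adjusted p = 0.0063). Lower genes were ATF3 (-0.93), SLC38A2 (-0.78), ALDH18A1 (-0.51) and GPT2 (-0.51), with ATF3 at 6.26, 6.36 and 6.398 TPM in deprived cells with inhibitor, against 10.1, 12.2 and 17.8 TPM in control cells with inhibitor.

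Control replicate 3 lay well above the rest of its group for DDIT3, at 44.0, 49.4 and 43.5 TPM in deprived cells with inhibitor, against 42.6, 54.5 and 84.2 TPM in control cells with inhibitor (-0.34 ± 0.21, adjusted p = 0.19). TRIB3 was at 56.6, 61.6 and 53.0 TPM in deprived cells with inhibitor, against 53.5, 53.6 and 96.2 TPM in control cells with inhibitor, and PSAT1 at 117, 114 and 114 TPM in deprived cells with inhibitor, against 72.5, 66.4 and 129 TPM in control cells with inhibitor. Neither passed (-0.19 and 0.42), nor did ATF4 (0.09). The effect with inhibitor minus that without was negative for 20 of 43 genes and positive for 1, against 9.57% and 12.9% of all genes. Without control replicate 3 it was negative for 26 and positive for 1, against 10.6% and 16.6% of all genes. NUPR1 differed most (-1.71 ± 0.24, adjusted p = 3.9e-04), then ATF3 (-1.59 ± 0.22, adjusted p = 1.8e-04), and ALDH18A1 was the positive one (0.69). Inhibitor against none in deprived cells gave 4 higher and 15 lower genes (18.6% and 21.7% of all). In control cells it gave 23 higher and 5 lower (14.6% and 21.3% of all). Without control replicate 3 the counts in control cells were 19 and 10 (13.6% and 24.9% of all). The hepatocyte markers summed to 18906 to 19080 TPM in deprived and 35059 to 40899 TPM in control cells with inhibitor.

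With the IDO/TDO inhibitor few of the genes differed past the threshold. Deprived against control cells, both with inhibitor, gave 2 higher genes and 1 lower gene of 43, where 0.854% and 0.532% of all genes were, and the median of these genes was 0.01. ASNS had 26.1, 25.4 and 25.9 TPM in deprived cells with inhibitor, against 25.5, 24.9 and 24.0 TPM in control cells with inhibitor (95% interval of the log2 fold change -0.07 to 0.18). DDIT3 had 39.2, 35.1 and 37.1 TPM in deprived cells with inhibitor, against 36.3, 42.9 and 37.0 TPM in control cells with inhibitor (95% interval -0.22 to 0.11). TRIB3 had 50.7, 48.2 and 54.3 TPM in deprived cells with inhibitor, against 56.1, 54.2 and 55.5 TPM in control cells with inhibitor, PSAT1 49.97, 41.1 and 51.9 TPM in deprived cells with inhibitor, against 43.5, 49.0 and 44.9 TPM in control cells with inhibitor, and neither passed.

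The genes called were NUPR1, SLC38A2 and GDF15. NUPR1 was lower, with 17.8, 17.2 and 23.8 TPM in deprived cells with inhibitor, against 35.4, 33.2 and 35.2 TPM in control cells with inhibitor (-0.81 ± 0.10, adjusted p = 0.0012). GDF15 had 675, 781 and 680 TPM in deprived cells with inhibitor, against 589, 569 and 563 TPM in control cells with inhibitor (0.31 ± 0.06, adjusted p = 0.014), and SLC38A2 had 314, 319 and 273 TPM in deprived cells with inhibitor, against 226, 247 and 236 TPM in control cells with inhibitor (0.35 ± 0.08, adjusted p = 0.04). The call of GDF15 was kept in 3 and that of SLC38A2 in 1 of the 6 fits that left out a library.

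The effect with inhibitor minus that without was negative for 37 of 43 genes and positive for 3, against 41.5% and 12.2% of all genes. NUPR1 (-3.71 ± 0.14, adjusted p = 2.6e-11), GDF15 (-2.37 ± 0.08, adjusted p = 4.9e-12), WARS (-1.91 ± 0.12, adjusted p = 4.5e-09) and SLC7A11 (-1.89 ± 0.15, adjusted p = 4.4e-08) differed most. The positive ones were the genes that had been lower, SLC38A2 (1.18), ALDH18A1 (1.05) and GPT2 (0.67). Inhibitor against none in deprived cells gave 3 higher and 37 lower genes (16.1% and 49.6% of all). In control cells it gave GTPBP2 as the 1 higher gene (0.73), which was also the 1 call among all 11470 genes (0.00872%), and which 2 of the 6 fits that left out a library kept. In the same libraries the hepatocyte markers summed to 44617 to 45102 TPM in deprived cells with inhibitor and 47357 to 48183 TPM in control cells with inhibitor, against 19946 to 20751 and 46873 to 47951 TPM without it. Their part in the result was not tested.

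With the AhR guide most of the genes were still higher in deprived cells. AHR mRNA averaged 7.70 ± 0.557 TPM in deprived and 4.71 ± 0.206 TPM in control cells with the AhR guide, against 6.81 ± 1.26 and 5.14 ± 1.19 TPM with the control guide (SD, n = 3 each). An edit need not alter the 3′ ends that were read, so this level does not check the guide. Deprived against control cells with the AhR guide gave 37 higher and 1 lower gene of 44, where 37.6% and 15.6% of all genes were. The hepatocyte markers summed to 19580 to 19815 TPM in deprived and 35966 to 36684 TPM in control cells with the AhR guide. The medians were 0.77 for these genes and 0.15 for all.

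GDF15 had 3433, 3824 and 3240 TPM in deprived cells, against 420, 445 and 468 TPM in control cells, all with the AhR guide (2.97 ± 0.07, adjusted p = 1.8e-12). NUPR1 had 244, 209 and 239 TPM in deprived cells, against 54.01, 47.6 and 55.9 TPM in control cells (2.11 ± 0.22, adjusted p = 4.0e-05). ASNS had 61.2, 64.5 and 59.97 TPM in deprived cells, against 20.6, 18.8 and 21.9 TPM in control cells (1.55 ± 0.09, adjusted p = 1.0e-08). The groups of these genes did not overlap. With the control guide, ASNS had 75.1, 83.6 and 76.5 TPM in deprived cells, against 23.5, 23.4 and 30.1 TPM in control cells (1.58 ± 0.09, adjusted p = 4.5e-09), and GDF15 had 5055, 5228 and 4902 TPM in deprived cells, against 914, 1052 and 910 TPM in control cells (2.40 ± 0.07, adjusted p = 5.1e-12). DDIT3 had 65.7, 73.3 and 70.1 TPM in deprived cells, against 29.7, 31.4 and 32.7 TPM in control cells with the AhR guide, and 82.8, 83.3 and 80.7 TPM in deprived cells, against 35.0, 39.4 and 66.0 TPM in control cells with the control guide. Control replicate 3 with the control guide was the highest of its group for DDIT3, TRIB3, ASNS, PSAT1 and NUPR1.

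SLC7A11 (1.89) and CTH (1.75) completed the 5 largest increases with the AhR guide, and ALDH18A1 was the lower gene (-0.96). TRIB3 had 76.1, 70.3 and 71.6 TPM in deprived cells, against 54.3, 59.0 and 56.6 TPM in control cells with the AhR guide (0.35 ± 0.11, adjusted p = 0.019). PSAT1 had 92.1, 98.0 and 112 TPM in deprived cells, against 58.1, 57.3 and 59.7 TPM in control cells (0.77 ± 0.13, adjusted p = 3.1e-04). ATF4 did not pass (-0.09). CHAC1 entered this table through its deprived libraries, at 0.975, 1.38 and 1.30 TPM in deprived cells, against 0.0720, 0.0730 and 0.132 TPM in control cells with the AhR guide, so its difference follows in part from the filter.

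The effect with the AhR guide minus that with the control guide was positive for 6 and negative for 3 of 44 genes, against 6.16% and 8.23% of all genes. SLC38A2 differed most (1.05 ± 0.10, adjusted p = 1.7e-05). It had 108, 109 and 117 TPM in deprived cells, against 103, 110 and 117 TPM in control cells with the AhR guide, and 125, 109 and 118 TPM in deprived cells, against 250, 255 and 221 TPM in control cells with the control guide. The control cells with the AhR guide were at the level of both deprived groups. ATF3 (0.64 ± 0.17, adjusted p = 0.021), GDF15 (0.57 ± 0.10, adjusted p = 0.0018) and GPT2 (0.55 ± 0.10, adjusted p = 0.0027) were next. ASNS did not pass, with a difference of -0.03 ± 0.13 (95% interval -0.30 to 0.24). Without control-guide control replicate 3 the calls numbered 17, against 9 with it, and with voom they were 7 and 9 in place of 6 and 3.

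AhR guide against control guide in deprived cells gave 1 higher and 6 lower genes (7.53% and 4.48% of all), with PPP1R15A at -0.69 and GDF15 at -0.54. In control cells it gave 6 higher and 13 lower (23.3% and 13.4% of all), a split that was 2 and 19 after quantile normalization, 4 and 18 after median scaling and 12 and 11 with voom. SLC38A2 (-1.13), GDF15 (-1.11) and ATF3 (-0.97) were lowest there. The call of TRIB3 for deprivation with the AhR guide in the fits that left out a library was kept in 4 of 6 (adjusted p up to 0.064, lost without control replicate 1 and without deprived replicate 1), and that of ATF3 for the difference between guides in 8 of 12.

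Kyn was followed by lower mRNA of a part of these genes. Kyn against DMSO without AhR inhibitor gave 1 higher and 14 lower genes of 43, where 6.11% and 5.54% of all 11798 genes were. NUPR1 had 14.6, 11.8 and 13.3 TPM in Kyn-treated cells, against 27.9, 27.7 and 23.0 TPM in DMSO-treated cells (-0.94 ± 0.12, adjusted p = 1.7e-04). GDF15 had 374, 476 and 408 TPM in Kyn-treated cells, against 587, 629 and 682 TPM in DMSO-treated cells (-0.60 ± 0.08, adjusted p = 3.3e-04). Neither overlapped between groups. ATF3 had 5.08, 6.92 and 7.02 TPM in Kyn-treated cells, against 10.2, 8.16 and 9.01 TPM in DMSO-treated cells (-0.47 ± 0.14, adjusted p = 0.038), CEBPB had 75.0, 78.3 and 74.4 TPM in Kyn-treated cells, against 102, 103 and 106 TPM in DMSO-treated cells (-0.45 ± 0.07, adjusted p = 0.0011), and GPT2 had 72.1, 77.5 and 78.6 TPM in Kyn-treated cells, against 106, 101 and 97.5 TPM in DMSO-treated cells (-0.41 ± 0.05, adjusted p = 1.8e-04).

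ATF4 mRNA was lower too, with 111, 102 and 112 TPM in Kyn-treated cells, against 133, 128 and 132 TPM in DMSO-treated cells (-0.27 ± 0.05, adjusted p = 0.0027), and so was TRIB3, with 46.5, 45.03 and 43.7 TPM in Kyn-treated cells, against 61.0, 56.3 and 54.8 TPM in DMSO-treated cells (-0.34 ± 0.07, adjusted p = 0.0048). ASNS did not pass, at 41.1, 40.8 and 43.7 TPM in Kyn-treated cells, against 36.8, 38.1 and 39.1 TPM in DMSO-treated cells (0.14), nor did DDIT3 (-0.09) or PSAT1 (-0.05). EIF4EBP1 was the higher gene, at 60.8, 58.0 and 56.9 TPM in Kyn-treated cells, against 48.6, 46.3 and 49.9 TPM in DMSO-treated cells (0.27 ± 0.08, adjusted p = 0.03), a call that was lost in each of the 6 fits that left out a library. The call of ATF3 was kept in 3 of 6 such fits. CHAC1 and FGF21 were too low to test, at 0.738 TPM or less and 0.095 TPM or less.

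**Figure D4:**
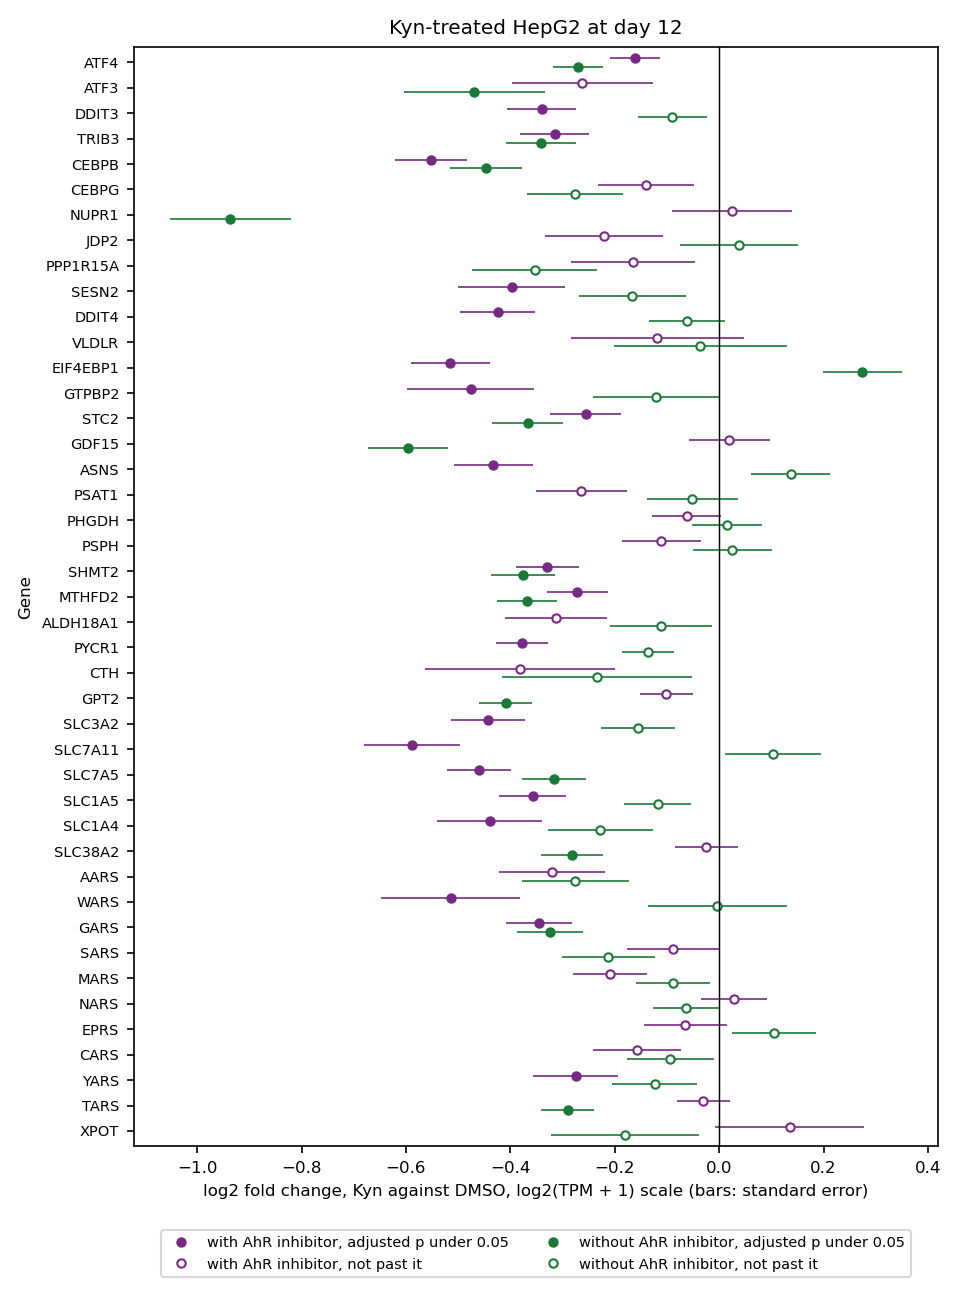
Log2 fold change of Kyn-treated against DMSO-treated HepG2 cells (x axis, bars are standard errors) for the 43 genes tested (y axis), with AhR inhibitor (purple) and without it (green); filled circles have adjusted p under 0.05. Most circles lie left of 0 in both, and NUPR1 and GDF15 lie near 0 with inhibitor and at -0.94 and -0.60 without it.

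With the AhR inhibitor, Kyn against DMSO gave 0 higher and 21 lower genes of 43, against 1.74% and 9.1% of all. The lower genes differed in part from those above. SLC7A11 had 4.35, 4.50 and 4.66 TPM in Kyn-treated cells with inhibitor, against 6.94, 7.49 and 7.39 TPM in DMSO-treated cells with inhibitor (-0.59 ± 0.09, adjusted p = 0.0017). ASNS had 31.9, 32.5 and 28.0 TPM in Kyn-treated cells with inhibitor, against 42.6, 37.9 and 45.4 TPM in DMSO-treated cells with inhibitor (-0.43 ± 0.08, adjusted p = 0.0031). NUPR1 (0.02) and GDF15 (0.02) did not pass, with GDF15 at 662, 664 and 609 TPM in Kyn-treated cells with inhibitor, against 612, 642 and 653 TPM in DMSO-treated cells with inhibitor. CEBPB (-0.55), EIF4EBP1 (-0.52), WARS (-0.51) and GTPBP2 (-0.48) completed the 5 largest decreases.

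DDIT3 had 36.7, 38.2 and 36.0 TPM in Kyn-treated cells with inhibitor, against 48.8, 43.9 and 48.6 TPM in DMSO-treated cells with inhibitor (-0.34 ± 0.07, adjusted p = 0.0054), and TRIB3 and ATF4 were lower, at -0.32 and -0.16. Calls were kept, in the fits that left out a library, for ATF4 in 0 of 6 (adjusted p up to 0.14), GTPBP2 in 3 of 6 (adjusted p up to 0.091) and WARS in 3 of 6 (adjusted p up to 0.099). The hepatocyte markers summed to 37119 to 37708 TPM in Kyn-treated and 29960 to 30436 TPM in DMSO-treated cells with inhibitor, and to 30856 to 32207 and 29742 to 30255 TPM without it, and their part was not tested. The count of 21 was 12 after quantile normalization and after median scaling, where the all-gene median of -0.09 was brought to 0.

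The Kyn effect with inhibitor minus that without differed past the threshold for 9 genes, 4 positive and 5 negative, against 2.11% and 6.83% of all. NUPR1 (0.96 ± 0.16, adjusted p = 0.0028) and GDF15 (0.62 ± 0.11, adjusted p = 0.0043) were positive. EIF4EBP1 (-0.79 ± 0.11, adjusted p = 5.4e-04) and SLC7A11 (-0.69 ± 0.13, adjusted p = 0.0055) were negative. The split was 5 and 3 after quantile normalization and after median scaling. Inhibitor against none in Kyn-treated cells gave 5 higher and 8 lower genes (4.36% and 17.6% of all), or 8 and 4 after quantile normalization and 11 and 3 after median scaling. In DMSO-treated cells limma called 0 of 43 genes and 0 of 11798 (0%), with 1 of the 43 at an unadjusted p under 0.05, where 4.41% of all genes were.

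In mouse hepatocytes the changes were fewer and smaller. Ahr averaged 7.10 ± 0.382 TPM in deprived and 7.79 ± 0.592 TPM in control hepatocytes with Ad-Cre, against 10.2 ± 0.415 and 9.65 ± 0.365 TPM with Ad-Cont (SD, n = 3 each). Whether the reads cover the floxed part is not known, so this level is no measure of the deletion. Deprived against control hepatocytes with Ad-Cont gave 9 higher and 1 lower gene of 44, where 4.32% and 5.46% of all 12155 genes were, and voom gave 7 and 2. Vldlr had 2.90, 1.98 and 2.70 TPM in deprived hepatocytes, against 0.824, 0.817 and 1.20 TPM in control hepatocytes (0.85 ± 0.16, adjusted p = 0.0037). Asns had 29.4, 32.6 and 44.1 TPM in deprived hepatocytes, against 20.9, 26.0 and 25.0 TPM in control hepatocytes (0.53 ± 0.13, adjusted p = 0.019). Neither gene overlapped between groups.

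Atf3 had 25.9, 27.7 and 34.5 TPM in deprived hepatocytes, against 19.3, 20.0 and 20.9 TPM in control hepatocytes (0.52 ± 0.10, adjusted p = 0.0064). Slc1a4 had 11.8, 9.72 and 10.9 TPM in deprived hepatocytes, against 7.20, 6.80 and 8.26 TPM in control hepatocytes (0.49 ± 0.10, adjusted p = 0.0091), and Chac1 had 14.5, 17.1 and 18.8 TPM in deprived hepatocytes, against 10.5, 12.4 and 12.5 TPM in control hepatocytes (0.47 ± 0.10, adjusted p = 0.01). Shmt2 (0.44), Tars (0.27), Trib3 (0.26) and Gars (0.17) were the other higher genes. Trib3 had 32.4, 31.5 and 35.2 TPM in deprived hepatocytes, against 26.4, 27.3 and 28.7 TPM in control hepatocytes, and its call was lost in each fit that left out a library. Wars was the lower gene, with 14.9, 12.1 and 12.1 TPM in deprived hepatocytes, against 19.3, 17.3 and 16.8 TPM in control hepatocytes (-0.42 ± 0.09, adjusted p = 0.011). In the fits that left out a library, calls were kept for Asns in 5 of 6 (adjusted p up to 0.078, lost without control replicate 1), Wars in 4 of 6 (adjusted p up to 0.052, lost without control replicate 1 and without deprived replicate 2), Gars in 1 of 6 (adjusted p up to 0.13) and Tars in 4 of 6 (adjusted p up to 0.068, lost without control replicate 1 and without deprived replicate 2).

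GDF15 and NUPR1, which led in HepG2, did not pass as Gdf15 and Nupr1 here. Nupr1 had 17.9, 23.5 and 23.1 TPM in deprived hepatocytes, against 27.1, 24.6 and 25.5 TPM in control hepatocytes (-0.26 ± 0.11, adjusted p = 0.14). Gdf15 had 171, 182 and 193 TPM in deprived hepatocytes, against 202, 179 and 183 TPM in control hepatocytes (95% interval of the log2 fold change -0.18 to 0.09). Atf4 had 539, 545 and 577 TPM in deprived hepatocytes, against 481, 485 and 522 TPM in control hepatocytes (0.16 ± 0.05, adjusted p = 0.084), with every deprived library above every control library. Ddit3 had 74.6, 84.4 and 98.6 TPM in deprived hepatocytes, against 80.6, 82.9 and 79.0 TPM in control hepatocytes, Psat1 44.3, 49.1 and 64.5 TPM in deprived hepatocytes, against 49.6, 49.1 and 51.9 TPM in control hepatocytes, and Fgf21 2.33, 1.29 and 1.47 TPM in deprived hepatocytes, against 1.40, 1.58 and 0.579 TPM in control hepatocytes, all with overlap. Stc2 was at or below 0.394 TPM and was not tested.

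With Ad-Cre, 0 genes were higher and 1 lower of 44, where 0.214% and 0.115% of all genes were. Nupr1 had 18.8, 18.7 and 21.6 TPM in deprived hepatocytes, against 33.6, 29.2 and 28.0 TPM in control hepatocytes (-0.60 ± 0.11, adjusted p = 0.023), a call kept in 2 of the 6 fits that left out a library. Vldlr had 1.38, 1.34 and 1.29 TPM in deprived hepatocytes, against 1.03, 1.22 and 1.11 TPM in control hepatocytes (0.14 ± 0.16, adjusted p = 0.83), and Asns had 26.3, 30.7 and 31.0 TPM in deprived hepatocytes, against 32.0, 31.6 and 28.5 TPM in control hepatocytes (-0.07 ± 0.13, adjusted p = 0.91). The difference between the 2 effects was itself tested, and limma called 0 of 44 genes, where 0.181% and 0.0658% of all genes were called as positive and negative. Of the 44, 10 were at an unadjusted p under 0.05, where 13.1% of all genes were, and voom called 0 as well. Its estimate was -0.71 ± 0.22, adjusted p = 0.2 for Vldlr and -0.59 ± 0.18, adjusted p = 0.19 for Asns, so a difference between Ad-Cre and Ad-Cont is not shown for these genes. Ad-Cre against Ad-Cont gave Shmt2 as the 1 lower gene in deprived hepatocytes (-0.37), where 0.51% of all genes were higher and 0.518% lower, and 0 genes in control hepatocytes (0.0165% and 0.00823% of all).

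**Figure D5:**
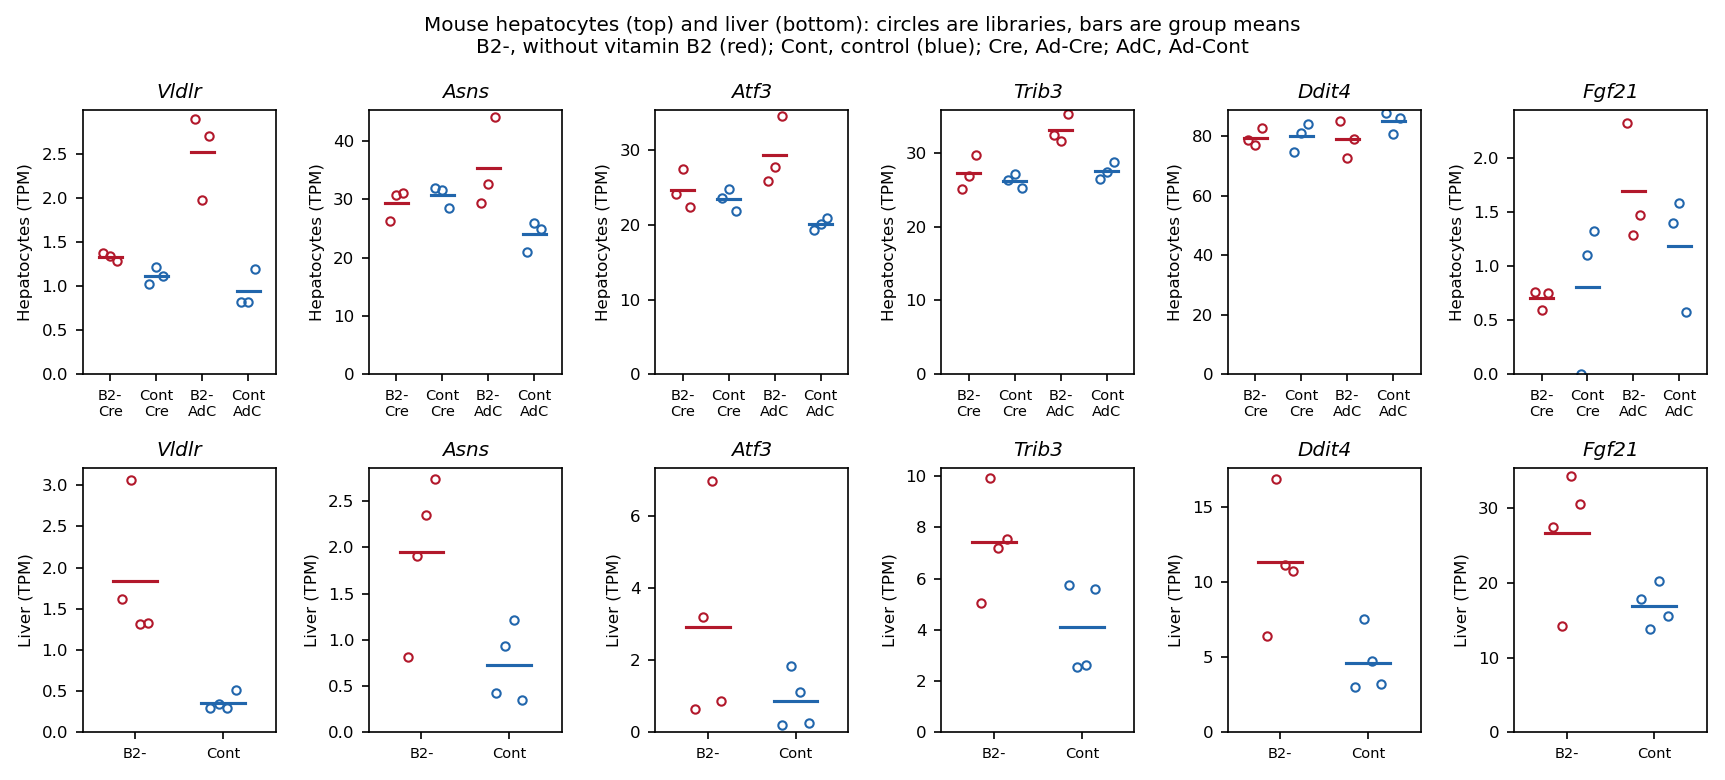
TPM (y axes, from 0) of 6 genes in mouse hepatocytes (top; Ad-Cre left, Ad-Cont right) and mouse liver (bottom), without vitamin B2 (red) and control (blue); circles are libraries and bars group means. Vldlr and Asns of deprived hepatocytes stand above controls with Ad-Cont, and in liver Vldlr does not overlap between diets.

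In mouse liver 34 of the 45 genes were tested, and 1 was higher and 0 lower in deprived livers, where 2.25% and 1.16% of all 10820 genes were. At an unadjusted p under 0.05 there were 16 of 34, where 25.5% of all genes were. Vldlr had 1.62, 3.07, 1.31 and 1.33 TPM in deprived livers, against 0.293, 0.343, 0.295 and 0.518 TPM in control livers (1.02 ± 0.18, adjusted p = 0.014). The groups did not overlap, but the gene passed the filter through its deprived livers alone, so its presence among the genes tested already required a difference. In the 8 fits that left out a column the call of Vldlr was kept in 6 (adjusted p up to 0.06). Ddit4 had 6.42, 16.9, 11.2 and 10.8 TPM in deprived livers, against 3.02, 7.55, 4.77 and 3.23 TPM in control livers (1.12 ± 0.30, adjusted p = 0.073), and Asns had 0.811, 1.91, 2.35 and 2.73 TPM in deprived livers, against 0.424, 0.938, 1.21 and 0.351 TPM in control livers (0.75 ± 0.23, adjusted p = 0.091). Both overlapped between diets. Of the 34 genes, 7 had every deprived column above every control column, as did 12.5% of all genes. Beside Vldlr they were Sesn2 (0.60 ± 0.17, adjusted p = 0.072), Gpt2 (0.50), Xpot (0.39), Tars (0.42), Gars (0.38) and Nars (0.32), and none of these 6 passed the threshold.

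Fgf21, a hormone that the liver releases in fasting and stress, was measurable in liver, at 27.4, 14.2, 34.3 and 30.5 TPM in deprived livers, against 17.8, 13.8, 20.3 and 15.6 TPM in control livers (0.57 ± 0.24, adjusted p = 0.17). Trib3 had 5.03, 9.93, 7.20 and 7.54 TPM in deprived livers, against 5.73, 2.54, 2.63 and 5.61 TPM in control livers (0.75 ± 0.25, adjusted p = 0.11). Atf4 had 62.1, 59.4, 74.3 and 66.3 TPM in deprived livers, against 49.4, 59.5, 56.6 and 47.6 TPM in control livers (0.29 ± 0.12, adjusted p = 0.16). The highest control liver was above the lowest deprived liver in each of these, by little for Atf4. Gdf15 had 5.79, 2.31, 1.92 and 6.88 TPM in deprived livers, against 3.14, 1.30, 2.37 and 1.90 TPM in control livers (0.62), and Ddit3 had 13.53, 6.91, 4.72 and 5.89 TPM in deprived livers, against 5.25, 5.58, 3.76 and 4.11 TPM in control livers (0.54).

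Of the 11 genes left out by the filter, Chac1 was at 0.225, 0.297, 0.358 and 0.423 TPM in deprived livers, against 1.00, 0.514, 0.960 and 1.41 TPM in control livers, with every deprived liver below every control liver. Psat1 was at 0.401, 0.378, 0.771 and 0.609 TPM in deprived livers, against 0.378, 0.271, 0.302 and 0.382 TPM in control livers, with overlap. The median estimate of the 34 tested was 0.35, beside 0.14 over all genes. Vldlr was among them through its deprived livers alone, and Asns and Nupr1 mostly through deprived livers, so the filter favours higher estimates for these genes. Macrophage markers summed to 64.3 to 96.5 TPM in deprived and 80.5 to 91.7 TPM in control livers, and endothelial markers to 64.4 to 78.5 and 49.1 to 70.4 TPM; their part in these estimates was not tested.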

How the data were processed

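The authors deposited 8 tables of TPM (6 human, 2 mouse), per the file headers, with 1 transcript per gene; the submitters' processing notes name STAR, HOMER, Bowtie2, hg38 and mm10 without a role. A 3′ library kit is given in the labels' protocols for cultured cells. TPM divides by length, although reads of such a kit come from 3′ ends, so levels are compared between samples only. The deposited transcript length column is another unit, and with it the TPM values gave whole reads (within 0.1), from which the depth of 4049600 to 19644000 reads per library was taken.

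The 98 columns in 32 groups were matched to the labels by name, except in liver. The 8 liver columns name the diet and not the animal, and were matched to the diets only. Thus 2 of the 10 labelled liver samples are not analysed here, and the headers do not tell which. Columns of the inhibitor and Kyn experiments lack the experiment number of the labels, which was taken from the deposited table. Within each table log2(TPM + 1) was fitted with group means in limma 3.58.1 (R 4.3.3; moderated variances, trend and robust), after a minimum of 1 TPM in as many libraries as the smallest group. P-values were adjusted over all genes of a table by Benjamini-Hochberg, with a threshold of 0.05. A difference between effects is the effect with the inhibitor, guide or Cre, or at day 12, minus the other. The fit was tested on simulated data. Alternatives were a pseudocount of 0.1, no filter, quantile normalization, median scaling, voom on recovered reads, a replicate block and leaving out each library. The genes and lists were chosen with earlier results of these data known. Named genes are ATF4, DDIT3, TRIB3, ASNS, CHAC1, GDF15, PSAT1 and FGF21, in each deprivation or Kyn comparison up to 5 of the highest and 5 of the lowest genes past the threshold, up to 4 of the largest differences between effects, and any other of the 45 genes; genes outside the 45 come from 4 pathway lists, up to 3 of the largest changes a list and comparison. Same-numbered replicates deviated together by correlations of -0.108 to 0.187 with medians near 0, so the main fit did not pair them. Low correlations cannot tell whether a shared number marks a shared culture or preparation.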

Additional observations from a re-analysis of the deposited data

Results flagged for a closer look

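The deprivation effect differed between days, and each difference below passed limma's test of the difference itself (adjusted p under 0.05). At day 12 minus day 3 the difference was 1.23 for GDF15, -0.92 for TRIB3, -0.89 for ATF3 and -0.87 for CEBPB on the log2 scale. At day 12 minus day 6 it was -1.55 for ATF3, -1.49 for CEBPB, -1.30 for STC2 and -1.16 for MTHFD2.

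With the AhR inhibitor minus without it, the deprivation effect differed by -1.71 for NUPR1, -1.59 for ATF3, -1.40 for SLC3A2 and -1.38 for PPP1R15A. The libraries with inhibitor carry another header date than those without. With the IDO/TDO inhibitor minus without it, the difference was -3.71 for NUPR1, -2.37 for GDF15, -1.91 for WARS and -1.89 for SLC7A11. With the AhR guide minus the control guide, it was 1.05 for SLC38A2, 0.64 for ATF3, 0.57 for GDF15 and 0.55 for GPT2. The Kyn effect with the AhR inhibitor minus that without it differed by 0.96 for NUPR1, -0.79 for EIF4EBP1, -0.69 for SLC7A11 and 0.62 for GDF15.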

How the results depend on the processing

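Counts of called genes mostly stayed within 1.5 times of the reported ones; the exceptions follow, and where no value shows a cause, the cause was not tested. Without the filter, deprived against control cells with the IDO/TDO inhibitor gave 1 call, that inhibitor in control cells 0, and deprived against control hepatocytes with Ad-Cre 0. Voom gave 16 calls for the guide difference, 0 for hepatocytes with Ad-Cre and 2 for Ad-Cre in deprived hepatocytes. Kyn with AhR inhibitor gave 12 calls after quantile normalization and 12 after median scaling. Leaving out 1 library gave 19 to 34 calls for deprivation with the AhR inhibitor, 1 to 3 with the IDO/TDO inhibitor, 0 to 1 for that inhibitor in control cells, 7 to 17 for the guide difference, 5 to 9 for hepatocytes with Ad-Cont, 0 to 1 with Ad-Cre, 0 to 2 for Ad-Cre in deprived hepatocytes and 0 to 3 in liver.

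Directions reversed in a few cases. For control cells at day 12 against day 3, quantile normalization gave PPP1R15A 0.0016, PYCR1 0.21, SLC3A2 0.18, SLC7A5 0.20, NARS 0.28 and EPRS 0.071, and median scaling gave PYCR1 0.15, NARS 0.21 and EPRS 0.017; the all-gene median there moved to 0.00 and 0.01. ATF4 at day 12 was 0.14 with voom. With the AhR inhibitor PHGDH was -0.19 (quantile) and -0.24 (median), and without it PYCR1 was -0.031 (median). ATF4 was -0.28 for deprivation without the IDO/TDO inhibitor (median). For the IDO/TDO inhibitor in deprived cells ATF4 was 0.15 (quantile) and 0.23 (median) and STC2 0.049 and 0.058. Leaving out 1 library gave GTPBP2 -0.41 to 0.34 and XPOT -0.24 to 0.35 for deprivation with the AhR inhibitor, the highest without control replicate 3, and JDP2 -0.20 to 0.25 for the AhR guide in control cells, the highest without control-guide control replicate 3. The replicate block moved 0 of 102 counts; of single values 1452 stayed, 12 lost and 8 gained a call. The 1 TPM minimum left FGF21 untested in HepG2, CHAC1 in all HepG2 tables but that of the guides, and 11 of the 45 genes in liver, where libraries held 13915000 to 19644000 reads. Depth was least in the Kyn table, at 4049600 to 5822600 reads.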
